A study of Mus musculus with 7 samples.

Results

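The 37 genes described here are immediate early and activity-regulated genes, transcription factors, phosphatases, kinases and secreted or synaptic proteins whose messages appear soon after a stimulus. They were chosen by symbol from a list, not by their values, and all 37 of 37 were found among the 31053 genes of the deposited matrices and had unique molecular identifiers (UMIs, which count captured RNA molecules) in the cells kept. Following the purpose of the list, they were divided by role into 3 neuronal activity genes (Npas4, Arc and Bdnf), 19 genes shared with dissociation, which are also known to be induced when tissue is taken apart into cells, and 15 other genes. The data were droplet single-cell 3′ RNA counts of primary hippocampal cultures, prepared from mice at postnatal day 0 by trypsin digestion and grown on poly-D-lysine. Cells were lifted again with trypsin before capture. The title of the series gives synapse formation as its subject. The groups were cultures at 1, 3, 5 and 7 days in vitro (DIV), with 1 library at DIV1 and 2 libraries at each later day. The labels name no treatment and no genetic change in any group, and the strain of mouse was not given in the sources used here. All cultures shared the enzyme steps, including 15 min in trypsin at dissection and 5 min at harvest, so no library shows the level of these genes without dissociation. Nothing in the labels states whether the paired libraries of a day came from separate cultures, so that p-values here cover the spread between libraries, part or all of which may be technical.

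Immediate early genes are transcribed from promoters that are already poised, so that calcium entry, growth factors or stress raise their RNA without new protein synthesis. In neurons, calcium entering through NMDA receptors and voltage-gated channels acts through calmodulin kinases and the MAPK cascade on the factors CREB, SRF and MEF2. The products, among them the AP-1, EGR and NR4A transcription factors, then drive later genes that act at synapses. Npas4 answers mainly to calcium and is nearly confined to neurons, whereas Fos, Jun, Egr1 and the phosphatase gene Dusp1 answer to many stimuli in most cell types, cell dissociation among them.

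Of 28846 barcodes, 26532 were kept as cells, with 2831 to 5070 per library, a median of 7059 to 20128.5 UMIs per cell and 36226566 to 114119537 UMIs per library. Cells were clustered without the 37 genes, and clusters were named from marker genes, which gave 4606 glutamatergic neuron-like, 477 GABAergic neuron-like, 8919 radial glia or astrocyte-like, 937 microglia or macrophage-like and 2037 fibroblast or meningeal cell-like cells. Levels are given in CPM, the UMIs of a gene per 1000000 summed UMIs of a class in a library, and a class needed 20 cells in a library. Pairs of libraries shared 10 to 34 cell barcodes (0.353% to 0.848% of the smaller library, 21 pairs). DIV3 replicate 1 stood apart. It was the deepest library, 96.1% of its radial glia or astrocyte-like cells were in a cluster led by Lcn2, Isg15 and Ifit3, and 35.4% of its glutamatergic neuron-like cells were in cluster 21 (Cck, Tubb3 and Stmn2), against 8.67% in DIV3 replicate 2. DIV7 replicate 1 lost 15.8% of its barcodes to the limit on mitochondrial UMIs, against 1.00% to 5.34% in the other libraries. Clusters were named from the same marker lists, so the marker sums describe the classes and are no independent check of the names. The 12 glutamatergic markers summed to 4526 to 6615 CPM in glutamatergic neuron-like cells. The 12 GABAergic markers summed to 10.5 to 47.5 CPM in those cells and to 2155 to 6507 CPM in GABAergic neuron-like cells. Other genes led some clusters: cluster 28 of the glutamatergic class was led by the myelin gene Mbp and Npas4, cluster 25 of the microglia class by Saa3, S100a8 and S100a9, and cluster 0 of the radial glia class, led by Wisp2, C1ql3 and Ltbp2, had no astrocyte marker among its top 10 genes.

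Most of the 37 genes were higher in glutamatergic neuron-like cells than in the other cells of the same dishes. Against radial glia or astrocyte-like cells, 25 of 37 were higher and 5 lower by edgeR's quasi-likelihood F test, Benjamini-Hochberg adjusted (7 libraries, library as a block), beside 33.9% higher, 37.0% lower and 70.9% called in either direction among all 14757 genes tested. Against microglia or macrophage-like cells 26 were higher and 6 lower, beside 35.7%, 37.4% and 73.0% of all genes. Against fibroblast or meningeal cell-like cells (6 libraries, since DIV1 had too few of them) 24 were higher and 5 lower, beside 37.2%, 38.6% and 75.7%. The share higher was thus above that of all genes and the share lower was below it, with median log2 differences of 1.41, 1.63 and 1.32 for the members and -0.07, -0.03 and -0.03 for all genes. In all 3 comparisons 20 members were higher in neurons and 3, Ier3, Klf2 and Phlda1, were lower, while 14 differed between comparisons or missed the threshold in at least 1 of them. The 20 were the neuronal activity genes Npas4, Arc and Bdnf, the AP-1 subunits Fos, Fosb and Jun, the factors Egr3, Egr4, Nr4a1, Nr4a2, Nr4a3 and Crem (a CREB relative), the clock gene Per1, the kinases Plk2 and Sik1, the phosphatase Dusp6, the growth arrest genes Btg2 and Gadd45g, the secreted Vgf, and Ier2. All 3 neuronal activity genes were higher in each comparison. Of the 19 genes shared with dissociation, 10, 10 and 11 were higher and 4, 5 and 3 lower, and of the 15 other genes 12, 13 and 10 were higher and 1, 1 and 2 lower.

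Among the neuronal activity genes, Npas4, a calcium-induced transcription factor of neurons, averaged 431 ± 296 CPM in glutamatergic neuron-like cells and 6.62 ± 3.69 CPM in radial glia or astrocyte-like cells (SD over 7 libraries). In glutamatergic neuron-like cells it stood at 65.5 CPM (DIV1), 45.1 and 432 (DIV3), 339.9 and 699.9 (DIV5) and 719 and 716 (DIV7). In radial glia or astrocyte-like cells Npas4 had 2.57 CPM (DIV1), 2.60 and 5.65 (DIV3), 6.73 and 12.5 (DIV5) and 10.4 and 6.01 (DIV7). The lowest neuronal library lay above the highest glial one. The log2 difference was 5.60 ± 0.33 against radial glia (SE; adjusted p = 4.04e-08), 5.63 ± 0.61 against microglia (adjusted p = 8.23e-06) and 6.45 ± 0.28 against fibroblasts (adjusted p = 6.33e-09), all by edgeR's quasi-likelihood F test, Benjamini-Hochberg adjusted. Arc, a synaptic scaffold that controls the uptake of AMPA receptors, had 8.42 CPM (DIV1), 0.397 and 14.1 (DIV3), 11.4 and 87.2 (DIV5) and 62.7 and 81.9 (DIV7) in glutamatergic neuron-like cells. Arc had 5.75 CPM (DIV1), 1.30 and 3.37 (DIV3), 3.87 and 10.0 (DIV5) and 11.2 and 30.8 (DIV7) in radial glia or astrocyte-like cells, and these ranges overlapped widely. Its log2 difference was 1.503 ± 0.41 against radial glia (adjusted p = 0.00605), 4.50 ± 0.32 against microglia (adjusted p = 2.39e-07) and 4.13 ± 0.30 against fibroblasts (adjusted p = 3.17e-07). Bdnf, a neurotrophin that supports synapses, had 257 CPM (DIV1), 158 and 306 (DIV3), 531 and 387 (DIV5) and 591 and 307 (DIV7) in glutamatergic neuron-like cells. It ranged from 63.7 to 143 CPM in radial glia or astrocyte-like cells and from 4.65 to 29.1 CPM in microglia or macrophage-like cells, below every glutamatergic library. The log2 difference of Bdnf was 1.58 ± 0.22 against radial glia (adjusted p = 4.72e-05), 4.49 ± 0.49 against microglia (adjusted p = 9.27e-06) and 1.962 ± 0.22 against fibroblasts (adjusted p = 9.24e-06).

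Among the transcription factors, the zinc-finger factors Egr3 and Egr4 and the nuclear receptors Nr4a2 and Nr4a3 had some of the largest neuronal differences. Against radial glia or astrocyte-like cells the log2 difference was 5.86 ± 0.39 for Egr4 (adjusted p = 1.29e-07), 4.74 ± 0.36 for Nr4a2 (adjusted p = 3.39e-07), 4.19 ± 0.22 for Egr3 (adjusted p = 1.76e-08) and 2.70 ± 0.25 for Nr4a3 (adjusted p = 2.03e-06). They were higher in neurons than in microglia by 5.67, 5.12, 3.56 and 4.29, in the order Egr4, Nr4a2, Egr3 and Nr4a3, and than in fibroblasts by 5.02, 5.00, 2.78 and 5.26 on the log2 scale. Fos and Fosb, AP-1 subunits, were also higher in neurons: by 1.76 ± 0.24 for Fos against radial glia (adjusted p = 5.36e-05) and by 3.43 ± 0.31 for Fosb against microglia (adjusted p = 1.85e-06). Fos had 321 CPM (DIV1), 170.1 and 1035 (DIV3), 509 and 1504 (DIV5) and 1172 and 1512 (DIV7) in glutamatergic neuron-like cells. In radial glia or astrocyte-like cells Fos had 84.4 CPM (DIV1), 93.4 and 114 (DIV3), 184 and 408 (DIV5) and 234 and 569 (DIV7). Every library held Fos RNA in both classes, and the DIV3 replicate 1 neurons (170.1 CPM) lay below the DIV7 glia. Egr1, a zinc-finger factor, had 55.9 CPM (DIV1), 11.6 and 283 (DIV3), 111 and 632 (DIV5) and 389 and 519 (DIV7) in glutamatergic neuron-like cells, and 55.3 CPM (DIV1), 34.6 and 38.8 (DIV3), 83.9 and 144 (DIV5) and 139 and 237.9 (DIV7) in radial glia or astrocyte-like cells. Its log2 difference against radial glia was 0.87 ± 0.44 and did not pass the test (adjusted p = 0.0959). Junb, another AP-1 subunit, and Nr4a1, a nuclear receptor, were higher in neurons than in radial glia by 1.41 ± 0.48 (adjusted p = 0.0203) and 1.35 ± 0.33 (adjusted p = 0.00295). Junb ranged from 79.6 to 1247 CPM in glutamatergic neuron-like cells and from 89.7 to 304 CPM in radial glia. Nr4a1 ranged from 43.9 to 312 CPM in glutamatergic neuron-like cells and from 13.6 to 243 CPM in radial glia, so that both pairs of ranges overlapped.

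Among the signalling enzymes, Plk2 and Plk3, polo-like kinases of which Plk2 acts on dendritic spine proteins in neurons, were higher in neurons than in radial glia by 3.147 ± 0.15 (adjusted p = 9.81e-09) and 1.88 ± 0.17 (adjusted p = 1.34e-06) on the log2 scale. Plk3 went the other way against microglia, where it was lower in neurons (log2 difference -1.62 ± 0.19, adjusted p = 1.38e-05). Members of several roles were lower in neurons. Dusp5, a nuclear phosphatase of ERK, was lower than in radial glia (log2 difference -2.62 ± 0.13, adjusted p = 1.17e-08), with 4.12 to 22.2 CPM in neurons and 21.4 to 141 CPM in radial glia. Phlda1, a pleckstrin-homology protein, was lower than in radial glia (-2.74 ± 0.17, adjusted p = 6.6e-08) and than in fibroblasts (-3.69 ± 0.29, adjusted p = 4.78e-07). Ier3, an inhibitor of stress-induced cell death, was lower in neurons in each comparison, with log2 differences of -3.05 ± 0.23 against radial glia, -4.56 ± 0.34 against microglia and -4.23 ± 0.23 against fibroblasts. Ier3 ranged from 5.53 to 14.7 CPM in glutamatergic neuron-like cells and from 84.7 to 503 CPM in microglia, with no overlap. Klf2, a Krüppel-like factor of vessel walls and white cells, was lower than in microglia (-2.98 ± 0.29, adjusted p = 2.81e-06) and than in fibroblasts (-3.05 ± 0.26, adjusted p = 1.11e-06). Inhba, the activin A subunit, was lower in neurons than in fibroblasts (-2.68 ± 0.21, adjusted p = 6.52e-07). Over 11 named classes, 13 members had their highest mean level in glutamatergic and 13 in GABAergic neuron-like cells, and 21 had the neuron classes in both top places. Of the 11 members that peaked elsewhere, Dusp1, Klf2, Gadd45b, Gadd45g, Phlda1 and Inhba peaked in mural cell-like cells, which reached 20 cells in both DIV3 libraries and DIV5 replicate 1 and in no DIV7 library, Ier3 and Plk3 in microglia, Ier5 in intermediate progenitor or neuroblast-like cells, Dusp5 in radial glia and Rasgrp1 in ciliated cell-like cells. With total-count scaling the median of all genes moved by over 0.1, to 0.36 against microglia and 0.37 against fibroblasts. Leaving out any 1 library gave 27 to 32, 29 to 35 and 29 to 35 members called in the 3 comparisons, against 30, 32 and 29 with all libraries.

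**Figure D1:**
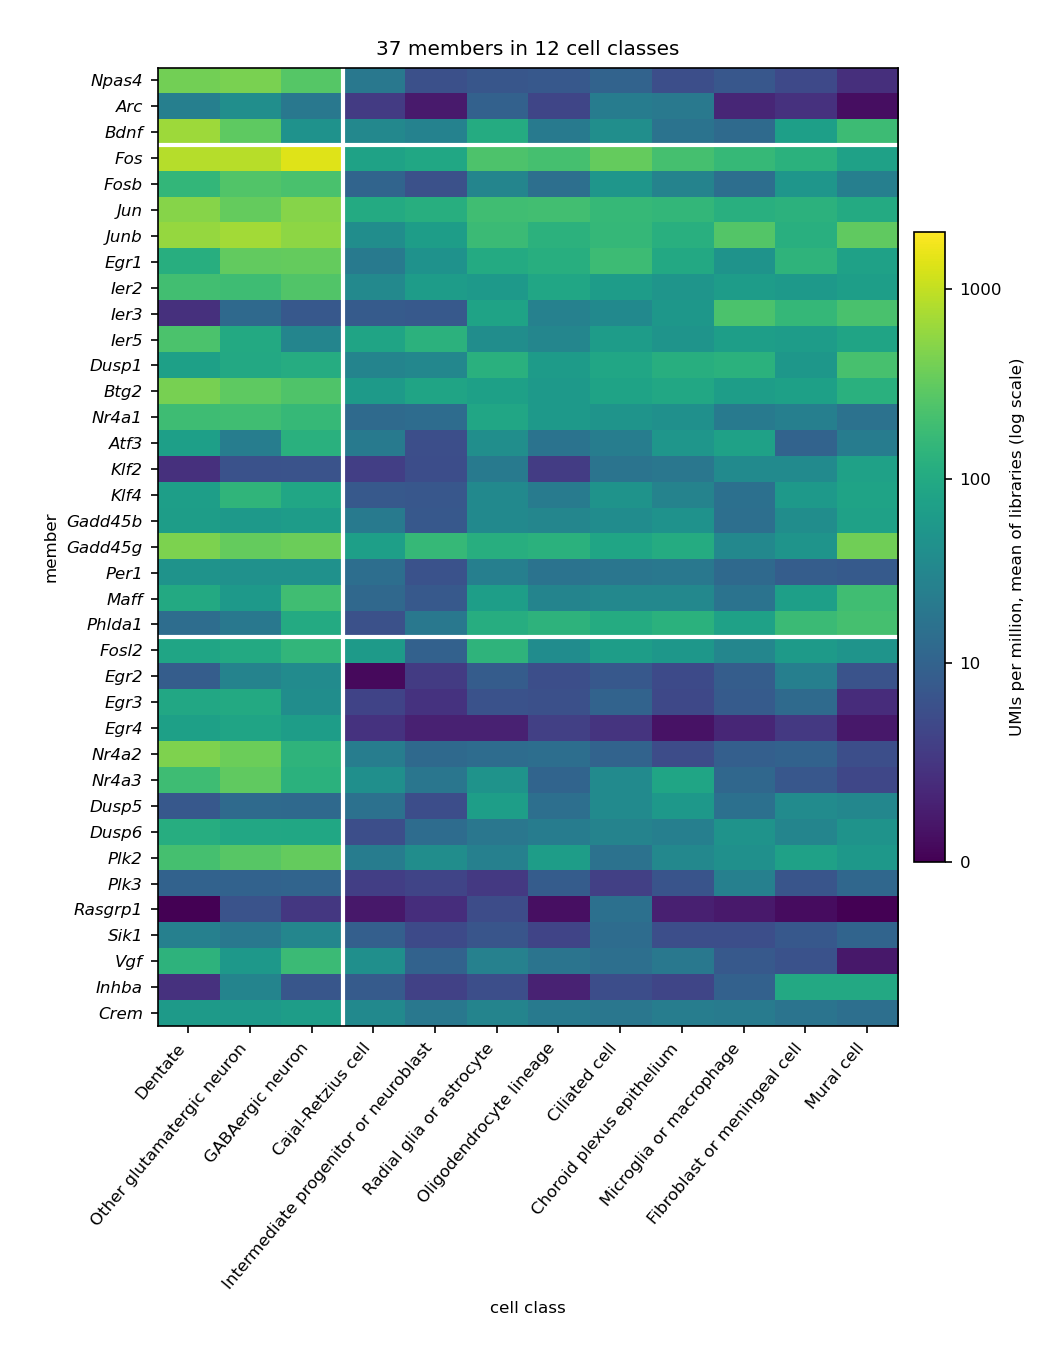
Mean level in CPM over libraries (colour, log scale) of each of the 37 genes (rows, with white lines between the neuronal activity genes, those shared with dissociation and the other members) in 12 cell classes (columns), with the glutamatergic class split into dentate-like and other cells and the white vertical line right of these neurons and the GABAergic ones. Read along a row, Npas4 and Egr4 are highest in the neuron columns, and Ier3 is highest in microglia and mural cells.

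**Figure D2:**
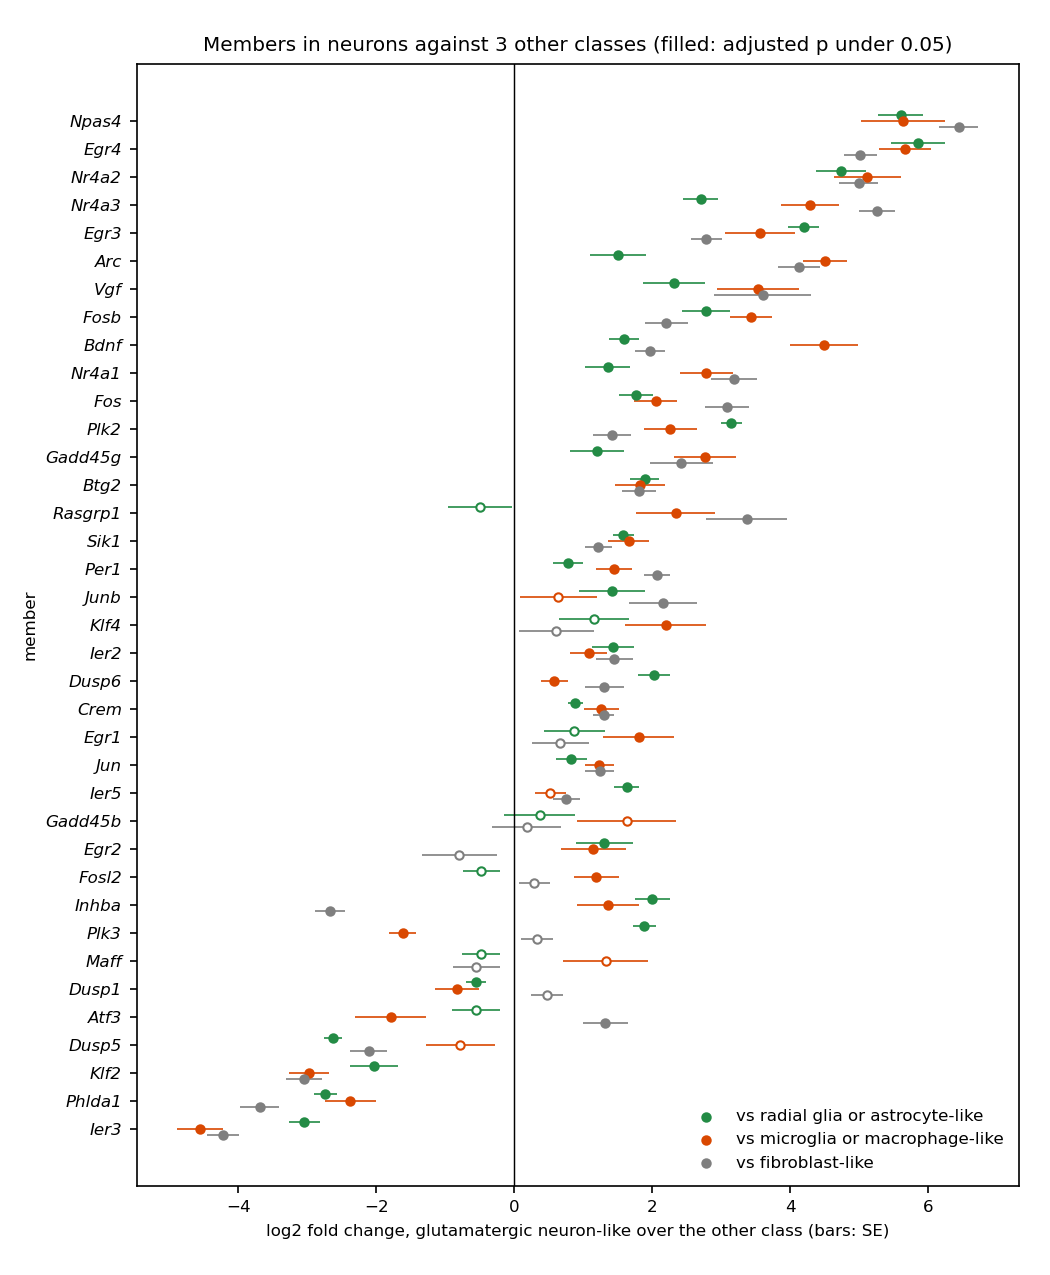
Log2 fold change from edgeR of each gene in glutamatergic neuron-like cells over radial glia or astrocyte-like, microglia or macrophage-like and fibroblast-like cells, with bars for the standard error. Filled points passed the adjusted p threshold of 0.05, and open points did not. Those of Npas4 lie at 5.60, 5.63 and 6.45, and those of Ier3 at -3.05, -4.56 and -4.23.

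Counted by cells, Npas4 was found in 22.3% (DIV1), 26.5% and 71.6% (DIV3), 71.3% and 81.0% (DIV5) and 88.1% and 83.0% (DIV7) of glutamatergic neuron-like cells, for example in 282 of 320 cells of DIV7 replicate 1 (exact 95% interval 84.1% to 91.5%) and 278 of 1051 cells of DIV3 replicate 1 (interval 23.8% to 29.2%). Intervals cover counting error only. In microglia or macrophage-like cells, which should lack Npas4, the share was 2.53% to 9.26%, and in radial glia or astrocyte-like cells it was 2.16% to 10.2%. These ranges were similar, and whether the share in radial glia is background was not tested. The glutamatergic markers summed to 22.7 to 648 CPM in the microglia class and to 99.5 to 208 CPM in radial glia. The part of neuronal RNA in the shares of both classes was not tested. Median depths were 5792 to 16901.5 UMIs in the neurons, 8321 to 19985 in radial glia and 9668 to 21164 in microglia. With every cell thinned to 3000 UMIs, the neuronal shares of Npas4 were 11.9% (DIV1), 10.2% and 52.2% (DIV3), 48.8% and 73.4% (DIV5) and 74.5% and 73.9% (DIV7), after leaving out 13 to 198 shallower cells per library. The thinned shares were 0.830% to 3.23% in radial glia and 0% to 5.63% in microglia, with 20 to 133 and 5 to 25 cells left out. Thinned or not, DIV1 and DIV3 replicate 1 had the smallest neuronal shares and the other 5 libraries lay far above them. Arc was found in 4.81% (DIV1), 0.476% and 9.96% (DIV3), 7.39% and 33.5% (DIV5) and 27.5% and 40.6% (DIV7) of glutamatergic neuron-like cells, in 2.35% to 18.4% of radial glia and in 0% to 3.45% of microglia. Thinned, the neuronal shares of Arc were 1.83% (DIV1), 0.197% and 3.51% (DIV3), 2.92% and 14.6% (DIV5) and 11.4% and 13.6% (DIV7).

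The CREB site is where calcium and cAMP signals reach many of these promoters, so the letters of the members' promoters were searched for it. RefSeq (GRCm38.p6, a later build than the mm9 named for the counts) gave 300-base windows, from 250 bases before to 50 bases after the start, for 29 members, 42 promoters in all. Arc, Egr1, Ier2, Phlda1, Egr3, Sik1, Vgf and Crem had no entry. The core letters TGACG of the cAMP response element, on either strand, were present in 24 of 42 member promoters (57.1%) and in 20.8% of all 32851 promoters of the table. The full palindrome TGACGTCA, which contains the core, was present in 9.52% of member promoters and 1.79% of all. The CArG box, the SRF site, was present in 5 promoters of 2 members, Egr2 and Dusp5 (11.9%), and in 1.63% of all. Counted by promoter, the core letters were as common in members higher in neurons in all 3 comparisons (12 of 21, 57.1%) as in the other members (12 of 21, 57.1%). Counted by gene the sets differed, with the letters in 11 of 14 and 9 of 15 genes, beside 6228 of all 27025 genes. Some genes have several promoters: Bdnf gave 7 of the neuronal set, 1 with the letters, and Egr2 gave 5 of the others, 3 with them. A match is a description of letters and not a bound site. The 250 bases before the start are shown for Npas4 and Egr4, which had large neuronal differences, Fos, which was found in all classes, and Ier3, which was lower in neurons and has no match. They run 5′ to 3′ on the gene's strand, with TGACG or its reverse complement CGTCA in capitals. Npas4 lies at chr19:4989972-4990221, minus strand, Egr4 at chr6:85513590-85513839, minus strand, Fos at chr12:85473640-85473889, plus strand and Ier3 at chr17:35821463-35821712, plus strand.
Npas4: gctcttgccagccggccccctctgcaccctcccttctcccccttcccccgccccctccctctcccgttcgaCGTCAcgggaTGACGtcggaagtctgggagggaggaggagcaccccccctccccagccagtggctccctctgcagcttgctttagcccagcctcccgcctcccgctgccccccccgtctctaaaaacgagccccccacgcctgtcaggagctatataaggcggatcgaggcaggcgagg
Egr4: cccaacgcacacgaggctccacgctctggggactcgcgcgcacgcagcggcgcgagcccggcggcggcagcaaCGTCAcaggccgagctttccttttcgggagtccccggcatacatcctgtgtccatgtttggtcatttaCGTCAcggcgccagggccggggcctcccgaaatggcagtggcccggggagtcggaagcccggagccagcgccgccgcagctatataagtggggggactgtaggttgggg
Fos: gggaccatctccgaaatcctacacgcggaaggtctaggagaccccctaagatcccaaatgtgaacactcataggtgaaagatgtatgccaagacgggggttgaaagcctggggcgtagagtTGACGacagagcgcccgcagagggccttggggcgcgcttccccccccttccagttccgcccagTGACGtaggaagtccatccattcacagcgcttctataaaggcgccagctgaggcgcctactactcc
Ier3: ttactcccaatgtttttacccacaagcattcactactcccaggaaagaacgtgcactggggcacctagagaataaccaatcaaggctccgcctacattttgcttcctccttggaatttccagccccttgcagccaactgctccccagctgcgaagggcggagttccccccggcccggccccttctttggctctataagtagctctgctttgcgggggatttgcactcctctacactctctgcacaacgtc

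Between neuron types the members differed in both directions. In GABAergic neuron-like cells 9 members were higher and 8 lower than in glutamatergic neuron-like cells (edgeR's quasi-likelihood F test, Benjamini-Hochberg adjusted, 7 libraries), beside 10.2%, 10.8% and, in either direction, 21.0% of all 11024 genes tested, and the median log2 difference of the members was 0.05 against -0.04 for all genes. Bdnf was lower in GABAergic cells (log2 difference -3.13 ± 0.62, adjusted p = 0.0147). It had 153 CPM (DIV1), 31.2 and 49.6 (DIV3), 9.83 and 14.9 (DIV5) and 36.6 and 36.1 (DIV7) in GABAergic neuron-like cells, below the glutamatergic level in each of the 7 libraries. Vgf, the precursor of secreted neuropeptides, was higher by 1.39 ± 0.19 (adjusted p = 0.00022). Phlda1, Maff, a small MAF factor without an activation domain, and Fosl2, an AP-1 subunit, were higher by 2.05, 1.44 and 0.63. Lower in GABAergic cells were Ier5, a nuclear early response protein (-1.97), Inhba (-1.85), Nr4a2 (-1.36), Nr4a3 (-1.12) and Egr3 (-1.01). Members of these families differed among themselves: the differences of Egr1 (0.48), Egr2 (0.52), Fosb (0.13) and Junb (-0.28) did not pass the test. Fos was higher by 0.69 ± 0.20 (adjusted p = 0.0405), with 418 CPM (DIV1), 545 and 878 (DIV3), 1086 and 2183 (DIV5) and 1976 and 2451 (DIV7) in GABAergic cells. Npas4 had 93.1 CPM (DIV1), 101 and 126 (DIV3), 238.4 and 426 (DIV5) and 441 and 479 (DIV7) in GABAergic cells, and its difference of -0.42 ± 0.29 did not pass the test (adjusted p = 0.387). Arc was lower in GABAergic cells (log2 difference -0.71) and passed the test, so that 2 of the 3 neuronal activity genes, Bdnf and Arc, were lower. The GABAergic sums held the glutamatergic markers at 2371 to 3800 CPM, a list that contains pan-neuronal Stmn2 and Grin2b, and their part in these values was not tested. The GABAergic class had 25 to 199 cells per library, and without DIV5 replicate 2 or DIV7 replicate 1 the count of members called was 10 in place of 17.

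Within the glutamatergic neuron-like cells, 1 cluster with high Prox1 and Neurod1, the dentate-like cells, was set against the rest. Other genes looked up beside these were split. Among the glutamatergic clusters it had the highest C1ql2 (13.3 CPM), Stxbp6 (44.5 CPM) and Dock10 (2.87 CPM). Its Sema3c was the lowest, at 251 CPM against 283 to 602 CPM. Calb2 was among its top 10 genes, and its median depth was 3456 to 7220 UMIs per cell over the libraries. Of 37 members 5 were higher and 11 lower in dentate-like cells, beside 21.8%, 23.7% and, in either direction, 45.5% of all 11416 genes tested, so that the share called (16 of 37) was close to that of all genes. Bdnf was higher by 1.01 ± 0.20 (adjusted p = 0.00201, edgeR's quasi-likelihood F test, Benjamini-Hochberg adjusted). It had 749 CPM (DIV1), 184 and 352 (DIV3), 755 and 799 (DIV5) and 1009 and 682 (DIV7) in dentate-like cells. In the other glutamatergic cells Bdnf had 217 CPM (DIV1), 144 and 299 (DIV3), 458 and 322 (DIV5) and 426 and 255.03 (DIV7), the lower value within every library. Ier5 was higher by 1.17 ± 0.13 (adjusted p = 4.03e-07), and in each library too, with 73.1 to 326 CPM in dentate-like cells and 62.1 to 136 CPM in the other glutamatergic cells. Atf3, a stress-induced ATF/CREB family factor, and Vgf were higher by 1.41 and 1.12. Inhba had the smallest p and was lower (log2 difference -4.21 ± 0.30, adjusted p = 3.87e-10), at 0 to 9.44 CPM in dentate-like cells and 15.2 to 58.9 CPM in the other cells, with no overlap. Egr1 and Egr2, zinc-finger factors, were lower (-1.48 and -1.54), as were Klf4, a Krüppel-like factor (-1.42), and Ier3 (-2.25). Rasgrp1, an exchange factor that switches on Ras in response to calcium and diacylglycerol, had no UMI in dentate-like cells of any of the 7 libraries, against 145 UMIs in the other glutamatergic cells. Set against a floor of 3 counts over the group, it was at least 12.1-fold lower in dentate-like cells. Npas4 had 86.1 CPM (DIV1), 43.3 and 201 (DIV3), 226 and 733 (DIV5) and 890.0 and 556 (DIV7) in dentate-like cells, and 63.9 CPM (DIV1), 46.1 and 470.0 (DIV3), 377 and 695 (DIV5) and 652 and 738 (DIV7) in the other glutamatergic cells. Its difference of -0.21 ± 0.21 did not pass the test (adjusted p = 0.44). Cajal-Retzius cell-like neurons, early-born cells that secrete reelin, reached 20 cells in 4 libraries only. Their Npas4 level was 27.9 CPM (DIV1), 41.4 and 4.36 (DIV5) and 5.67 (DIV7), and their Fos level 140.1 CPM (DIV1), 92.7 and 48.0 (DIV5) and 35.9 (DIV7), below the glutamatergic level of Fos in all 4 libraries.

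With days in culture, most members in glutamatergic neuron-like cells had higher levels in both DIV7 libraries than at DIV3, and 4 of 37 passed the test. Both DIV7 libraries lay above both DIV3 libraries for 27 of 37 members and below them for 1, Ier5, beside 27.9% above and 29.5% below among the 13291 genes tested. By edgeR's quasi-likelihood F test, Benjamini-Hochberg adjusted, 4 members rose at DIV7 relative to DIV3 and none fell, beside 4.83% higher, 2.42% lower and 7.25% in either direction among all genes. The estimate was positive for 34 of 37, with a median log2 change of 1.30 for the members and -0.04 for all genes, and 10 members had an unadjusted p under 0.05. Here and below, counts at an unadjusted p are given without the share of all genes, so they do not set the members apart from other genes. Rasgrp1 had 10.0 and 14.6 CPM at DIV7 and 0.159 and 0.144 CPM at DIV3 (adjusted p = 0.000702). It rested on 65 UMIs at DIV7 and 3 at DIV3, a ratio of levels of 73.3 (95% counting interval 24.01 to 365), and its fitted log2 change of 6.13 depends on the prior count. Dusp5 had 22.2 and 21.6 CPM at DIV7 and 4.12 and 6.35 CPM at DIV3 (2.08 ± 0.33, adjusted p = 0.00634). Phlda1 had 31.9 and 22.2 CPM at DIV7 and 8.64 and 9.53 CPM at DIV3 (1.60 ± 0.33, adjusted p = 0.0191). Plk2 had 387 and 329.6 CPM at DIV7 and 126 and 218 CPM at DIV3 (1.06 ± 0.26, adjusted p = 0.0359). For these 4 genes both DIV7 libraries lay above both DIV3 libraries. With a stricter cell filter (at least 1000 genes and at most 5% mitochondrial UMIs) no member was called, beside 0.00788% of all genes. The clusters that made up the class differed between days: cluster 9, with Npas4 among its top genes, held 46.25% and 53.77% of the cells at DIV7 and 3.14% and 7.93% at DIV3, cluster 21 held 35.39% of DIV3 replicate 1 and cluster 5 held 48.34% of DIV3 replicate 2. Within cluster 4 alone, the dentate-like cells, which every library held, 9 of 33 members tested were called, all higher, beside 3.9% of all genes.

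The better-known members did not pass the test, and for these the DIV3 libraries lay far apart. Npas4 had 719 and 716 CPM at DIV7 and 45.1 and 432 CPM at DIV3, a log2 change of 1.60 ± 1.20 (adjusted p = 0.471, edgeR's quasi-likelihood F test, Benjamini-Hochberg adjusted). Fos had 1172 and 1512 CPM at DIV7 and 170.1 and 1035 CPM at DIV3 (1.16 ± 1.09, adjusted p = 0.563). Arc had 62.7 and 81.9 CPM at DIV7 and 0.397 and 14.1 CPM at DIV3 (3.42 ± 1.88, adjusted p = 0.348). In all 3 genes DIV3 replicate 2 was, on a log scale, closer to DIV7 than to DIV3 replicate 1. Egr1 had 389 and 519 CPM at DIV7 and 11.6 and 283 CPM at DIV3, Junb 1247 and 1217 CPM at DIV7 and 84.5 and 550.0 CPM at DIV3, and Nr4a1 282 and 312 CPM at DIV7 and 43.9 and 203 CPM at DIV3, in the same pattern. Bdnf had 591 and 307 CPM at DIV7 and 158 and 306 CPM at DIV3 (0.95 ± 0.39, adjusted p = 0.176), with DIV7 replicate 2 level with DIV3 replicate 2. Without DIV3 replicate 2, 21 members were called beside 21.2% of all genes, Npas4 among them at 3.96 (adjusted p = 0.00587). Without DIV3 replicate 1, 2 were called beside 2.57% of all genes and the log2 change of Npas4 was 0.75, and without either DIV7 library 1 was called. With the replicate number as a block, 11 members were called beside 22.3% of all genes, 10 higher (Rasgrp1, Dusp5, Phlda1 and Plk2 with Dusp1, Klf2, Gadd45b, Gadd45g, Per1 and Plk3) and 1 lower, Ier5 (-0.68 without the block, adjusted p = 0.0785). Markers of glia moved with day in these sums: the 16 radial glia or astrocyte markers, none of them at 0, summed to 802 to 1760 CPM at DIV7 and 531 to 917 CPM at DIV3, and the 14 microglia markers, 5 of them at 0 in some library, to 28.8 to 121 CPM at DIV7 and 5.39 to 16.7 CPM at DIV3. The 10 oligodendrocyte markers, 2 of them (Pdgfra and Bcas1) at 0 in some library, summed to 41.2 to 659 CPM at DIV7 and 54.3 to 60.5 CPM at DIV3, and in DIV7 replicate 2 Mbp alone had 603 CPM and cluster 28 held 12.26% of the cells. Without cluster 28, 3 members were called and Plk2 missed the threshold (adjusted p = 0.0555). The part of the other glial markers was not tested.

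**Figure D3:**
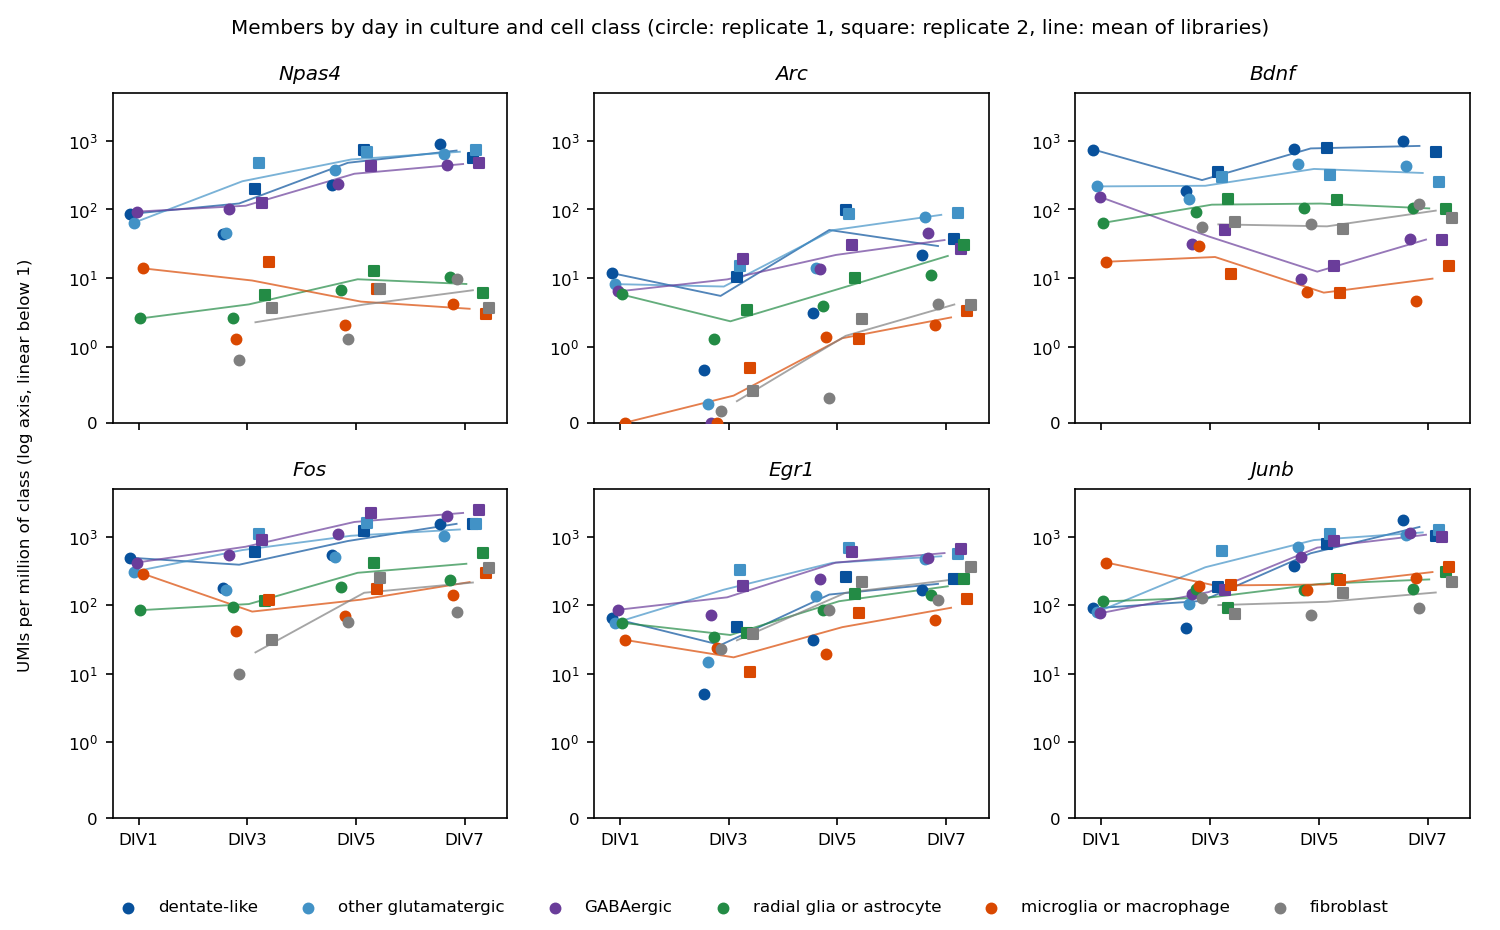
Level in CPM (log axis, linear below 1) of Npas4, Arc, Bdnf, Fos, Egr1 and Junb by day in culture, in dentate-like, other glutamatergic, GABAergic, radial glia or astrocyte, microglia or macrophage and fibroblast classes. Circles are replicate 1, squares replicate 2, and lines join the means of a day. The points of Npas4 in the other glutamatergic cells are far apart at DIV3 (46.1 and 470.0) and close at DIV7 (652 and 738).

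At DIV5 against DIV3, Rasgrp1 was the 1 member of 37 called in glutamatergic neuron-like cells, with 2.84 and 3.82 CPM at DIV5 and 0.159 and 0.144 CPM at DIV3 (adjusted p = 0.0274, edgeR's quasi-likelihood F test, Benjamini-Hochberg adjusted), beside 0.436% higher, 0.0677% lower and 0.504% in either direction among all genes. The median log2 change of the members was 0.85 and that of all genes -0.01, with 5 members at an unadjusted p under 0.05, and the members not called ranged from -0.21 to 2.87. With the replicate block 6 were called beside 5.31% of all genes, which added Gadd45b and Gadd45g, stress-induced growth arrest proteins, with Phlda1, Dusp5 and Plk2. This comparison and the others of DIV3 share the DIV3 libraries. Without DIV3 replicate 2 the count was 18 beside 9.46% of all genes, and without DIV3 replicate 1, DIV5 replicate 2 or either DIV7 library it was 0. At DIV3 against DIV1, where DIV1 is a lone library taken to vary like the other days, none of 37 was called, beside 0.15% higher, 0.0376% lower and 0.188% in either direction. DESeq2 called 2, and 3 members had an unadjusted p under 0.05 in the edgeR test, Rasgrp1 (-4.00 on the log2 scale), Ier5 (1.37) and Inhba (-1.38). Without DIV3 replicate 1 the count was 2 and without DIV3 replicate 2 it was 5. Ier5 had 62.9 CPM (DIV1), 179 and 146 (DIV3), 172 and 153 (DIV5) and 113 and 90.8 (DIV7), with its lowest neuronal level at DIV1 and its highest in DIV3 replicate 1. The mix of clusters also differed between DIV1 and DIV3. Cluster 4, the dentate-like cells, held 14.09% of the class at DIV1 and 56.8% and 29.34% at DIV3. Cluster 5 held 84.4% at DIV1 and 2.57% and 48.34% at DIV3. In dentate-like cells Rasgrp1 and Inhba were lower and Ier5 higher than in the other glutamatergic cells. The part of this mix in the changes was not tested.

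In radial glia or astrocyte-like cells 10 members rose at DIV7 relative to DIV3 and none fell (edgeR's quasi-likelihood F test, Benjamini-Hochberg adjusted), beside 7.17% higher, 8.42% lower and 15.6% in either direction among all 14485 genes. Both DIV7 libraries lay above both DIV3 libraries for 24 of 37 members and below them for none, beside 37.8% and 25.2% of all genes. The median log2 change was 0.89 for the members and 0.05 for all genes. The members that rose were the AP-1 subunits Fosl2 and Fosb, the EGR factors Egr1 and Egr2, the phosphatase Dusp5, and Klf4, Btg2, Atf3, Plk2 and Arc. Fosl2 had 219.5 and 291 CPM at DIV7 and 57.3 and 72.1 CPM at DIV3 (1.88 ± 0.30, adjusted p = 0.0215). Egr1 had 139 and 237.9 CPM at DIV7 and 34.6 and 38.8 CPM at DIV3 (2.26 ± 0.41, adjusted p = 0.024). Dusp5 had 124 and 141 CPM at DIV7 and 27.3 and 46.8 CPM at DIV3 (1.74 ± 0.29, adjusted p = 0.0229). None of these 3 overlapped between days. Egr2, Fosb and Atf3 rose by 3.41, 3.36 and 1.97, Btg2, an antiproliferative protein, by 1.10, Klf4 by 0.94 and Plk2 by 0.78. Of the neuronal activity genes, Arc rose, with 11.2 and 30.8 CPM at DIV7 and 1.30 and 3.37 CPM at DIV3 (3.18 ± 0.77, adjusted p = 0.039). The change of Npas4 was 0.89 ± 0.49 (adjusted p = 0.24) and that of Bdnf -0.29 ± 0.27 (adjusted p = 0.476). Fos had 234 and 569 CPM at DIV7 and 93.4 and 114 CPM at DIV3, and missed the threshold (1.87 ± 0.56, adjusted p = 0.0643). With the replicate block 18 members were called beside 30.2% of all genes, Fos, Jun, Dusp1 and Nr4a1 among those added. Without DIV3 replicate 1 or without DIV7 replicate 2 the count was 0, without DIV3 replicate 2 it was 3 (11.3% of all genes) and without DIV7 replicate 1 it was 6. Markers of other cell types moved with day in these sums. The 12 ciliated cell markers, of which Tmem212 was at 0 in some library, summed to 442 to 813 CPM at DIV7 and 213 to 228 CPM at DIV3, and ciliated cell-like cells had the next highest mean level of Arc (23.6 CPM) after glutamatergic neuron-like cells. The 10 mural cell markers, 4 of them at 0 in some library, summed to 351 to 752 CPM at DIV7 and 1331 to 1399 CPM at DIV3, and the radial glia or astrocyte markers themselves to 17380 to 31947 CPM at DIV7 and 7104 to 7709 CPM at DIV3. Their part in the changes was not tested. The clusters that made up the class differed between libraries: 96.1% of DIV3 replicate 1 was in cluster 3, 80.9% of DIV3 replicate 2 and 74.0% of DIV7 replicate 1 in cluster 0, and DIV7 replicate 2 was mostly in clusters 1 (39.4%) and 10 (32.7%), both led by mature astrocyte genes such as Slc1a2. With stricter cluster naming 4 members were called beside 6.37% of all genes. With total-count scaling the median change of all genes was 0.18.

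In fibroblast or meningeal cell-like cells 11 members rose and 1 fell at DIV7 relative to DIV3, of 36 tested (Rasgrp1 was not tested), beside 10.9% higher, 11.4% lower and 22.3% in either direction among all 12550 genes. Both DIV7 libraries lay above both DIV3 libraries for 24 members and below for 1, beside 45.6% and 23.7% of all genes. Egr1 had 118 and 357 CPM at DIV7 and 23.2 and 38.1 CPM at DIV3 (2.73 ± 0.65, adjusted p = 0.0355, edgeR's quasi-likelihood F test, Benjamini-Hochberg adjusted). Fosl2, Btg2, Dusp1, Dusp6 (a cytoplasmic ERK phosphatase), Jun and Egr2 rose by 0.87 to 1.32 on the log2 scale, with Fosl2 at 1.32 and Dusp6 at 0.87. Egr4 and Arc rose by 3.77 ± 0.84 and 3.67 ± 0.85, both at low levels, Arc with 4.15 and 4.07 CPM at DIV7 and 0.155 and 0.411 CPM at DIV3. Vgf was the 1 member that fell, with 1.09 and 1.83 CPM at DIV7 and 21.4 and 7.14 CPM at DIV3 (-3.54 ± 0.64, adjusted p = 0.0139). In DIV3 replicate 1, 99.05% of the class was in cluster 14 (Crct1, Timp1, Hmga2), and the radial glia markers summed to 981 to 2217 CPM at DIV7 and 327 to 530 CPM at DIV3, whose part was not tested. With the block 20 members were called beside 34.5% of all genes, with stricter cluster naming 1 beside 1.05%, without DIV3 replicate 1 the count was 6 beside 5.78%, without DIV7 replicate 1 it was 1 beside 1.26% and without DIV7 replicate 2 it was 0 beside 0.423%. With total-count scaling the median change of all genes was 0.28. In microglia or macrophage-like cells none of 34 members tested was called (Arc, Egr4 and Rasgrp1 were too low to test), beside 0.0% higher, 0.0% lower and 0.0% in either direction among all 10809 genes. There, 9 members had an unadjusted p under 0.05 and DESeq2 called 1, both without a share of all genes beside them. Both DIV7 libraries lay above both DIV3 libraries for 15 members and below for 1, Vgf, beside 25.0% and 23.8% of all genes. Fos had 286 CPM (DIV1), 41.4 and 119.6 (DIV3), 69.6 and 171 (DIV5) and 140.4 and 293 (DIV7) in microglia. Ier3 had 503 CPM (DIV1), 116 and 122 (DIV3), 84.7 and 252 (DIV5) and 94.0 and 469.6 (DIV7) in microglia, with the highest values in the DIV1 library and DIV7 replicate 2. Cluster 25 held 93.15% of the microglia class at DIV1 and 86.08% in DIV3 replicate 1, against 19.31% to 27.38% in the other libraries, which were mostly in cluster 15 (Lyz2 and the C1q genes). The 16 radial glia or astrocyte markers, of which Hes5 was at 0 in some library, summed in this class to 1414 to 4032 CPM at DIV7 and 575 to 1137 CPM at DIV3. The 12 glutamatergic markers summed in this class to 22.7 to 40.7 CPM at DIV7 and 188 to 229 CPM at DIV3. Vgf had its highest mean levels in GABAergic and then glutamatergic neuron-like cells (179 and 68.3 CPM). The part of the clusters and of these markers in the members' levels was not tested. Fitted changes in microglia ran from -2.55 for Vgf to 3.10 for Egr2.

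**Figure D4:**
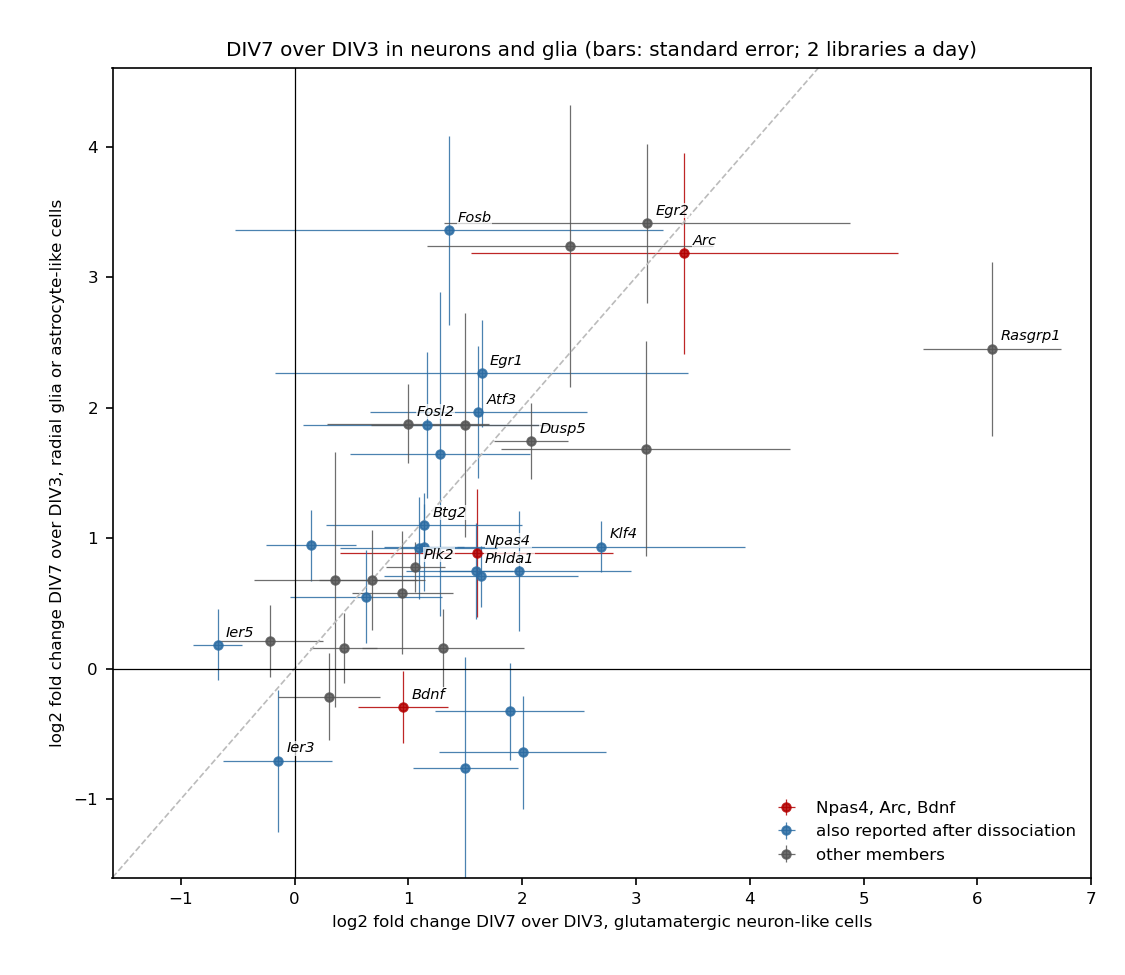
Log2 change at DIV7 over DIV3 (edgeR, bars for the standard error) of each of the 37 genes in glutamatergic neuron-like cells (horizontal axis) and in radial glia or astrocyte-like cells (vertical axis), coloured by group, with a dashed line of equal change. The classes come from the same libraries, so no correlation is given. Rasgrp1 lies at 6.13 in neurons and 2.45 in glia, and Ier5 at -0.68 in neurons and 0.18 in glia.

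Tested as a difference between the classes, the change from DIV3 differed for 2 of 37 members, beside 3.84% with a larger change in neurons, 2.72% with a smaller one and 6.56% in either direction among all 15355 genes. The change of Rasgrp1 was larger in glutamatergic neuron-like cells than in radial glia or astrocyte-like cells by 3.87 ± 0.79 (adjusted p = 0.0182, edgeR's quasi-likelihood F test, Benjamini-Hochberg adjusted). That of Ier5 was lower in neurons, with a difference of -0.90 ± 0.22 (adjusted p = 0.0369). Ier5 had 113 and 90.8 CPM at DIV7 and 179 and 146 CPM at DIV3 in neurons, and 64.4 and 44.7 CPM at DIV7 and 49.9 and 36.8 CPM at DIV3 in radial glia. For the neuronal activity genes the differences did not pass: 1.43 ± 0.70 for Npas4 (adjusted p = 0.297), 1.20 ± 0.42 for Bdnf (adjusted p = 0.136) and 1.13 ± 1.19 for Arc (adjusted p = 0.647). At an unadjusted p under 0.05 there were 8 members, again without a share of all genes beside them. The count was 10 without DIV3 replicate 2, beside 2.87% of all genes, 4 without either DIV5 library, 1 without DIV3 replicate 1 or DIV7 replicate 2 and 0 without DIV7 replicate 1 or with the stricter cell filter. With total-count scaling the median difference of all genes was -0.15.

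The summed neuronal activity genes and the summed genes shared with dissociation were both lowest in the DIV1 library and DIV3 replicate 1 of the glutamatergic neuron-like cells, and both highest at DIV7 and in DIV5 replicate 2. Summed over its 3 genes, the neuronal activity group stood at 330.5 CPM (DIV1), 203 and 753 (DIV3), 882 and 1175 (DIV5) and 1373 and 1104 (DIV7) in glutamatergic neuron-like cells. The 19 genes shared with dissociation summed to 1342 CPM (DIV1), 1124 and 4213 (DIV3), 2784 and 6671 (DIV5) and 6031 and 6729 (DIV7), and the other group to 858 CPM (DIV1), 442 and 1516 (DIV3), 1456 and 2038 (DIV5) and 2339.9 and 2027 (DIV7). Each of the 3 sums was lowest in DIV3 replicate 1, and each was higher in both DIV7 libraries than at DIV3 or DIV1. The heat shock protein genes, chaperones that are not members, summed to 5679 CPM (DIV1), 6794 and 5476 (DIV3), 3932 and 4606 (DIV5) and 4001 and 4531 (DIV7) in the same cells, with the highest value in DIV3 replicate 1, where the members were lowest. In radial glia or astrocyte-like cells the neuronal activity group summed to 72.0 CPM (DIV1), 95.5 and 152 (DIV3), 116 and 161 (DIV5) and 126 and 139.6 (DIV7), most of it Bdnf, and the genes shared with dissociation to 1203 CPM (DIV1), 1273 and 1092 (DIV3), 1320.0 and 2118 (DIV5) and 1787 and 2975 (DIV7). The heat shock protein genes summed there to 6589 CPM (DIV1), 5208 and 4108 (DIV3), 3163 and 2776 (DIV5) and 2717 and 2421 (DIV7). They were thus lower at DIV7 than at DIV3 in glia, while the genes shared with dissociation were higher. The sum of all members was 2858 CPM (DIV1), 2305 and 3650.4 (DIV3), 5157 and 9075 (DIV5) and 10619.9 and 11186 (DIV7) in GABAergic neuron-like cells and 2674 CPM (DIV1), 1351 and 1156 (DIV3), 1131 and 1427 (DIV5) and 1647 and 2818 (DIV7) in microglia or macrophage-like cells. These sums are descriptions without a test.

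**Figure D5:**
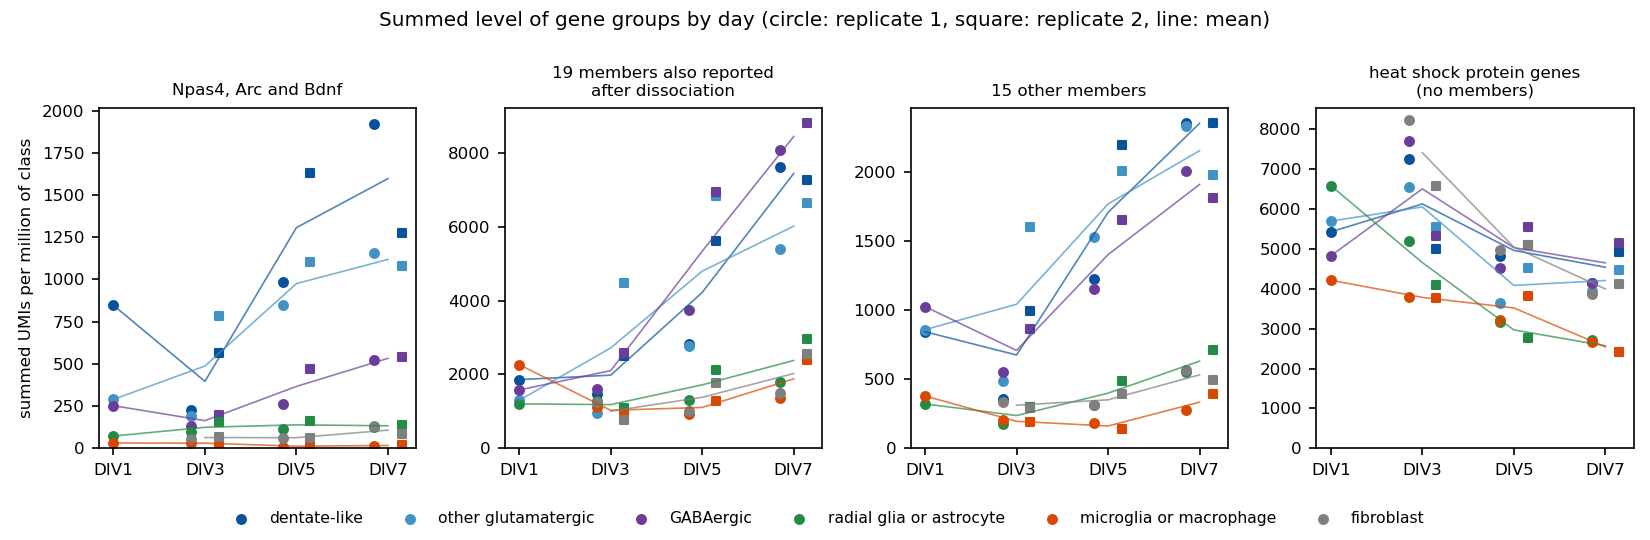
Summed level in CPM of Npas4, Arc and Bdnf, of the 19 genes shared with dissociation, of the 15 other members and of the heat shock protein genes by day in culture, for 6 cell classes. Circles are replicate 1, squares replicate 2, and lines join the means of a day. In the neuron classes the member sums of both DIV7 libraries lie above both DIV3 libraries.

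Single members also separated the paired libraries of a day, in nearly every class at once. Fos was higher in replicate 2 in 11 of 11 classes at DIV3, 11 of 12 at DIV5 and 9 of 9 at DIV7, and Fosb in 11 of 11, 11 of 12 and 8 of 9. Nr4a1 was higher in replicate 2 in 9 of 11, 12 of 12 and 9 of 9 classes. Klf2 ran the other way, higher in replicate 2 in 1 of 11, 0 of 12 and 2 of 9 classes, as did Plk3 with 0 of 11, 4 of 12 and 2 of 9. Npas4 was higher in replicate 2 in 7 of 11, 11 of 12 and 4 of 9 classes, without a common direction at DIV7. Fos and Fosb thus varied with the library in neurons, glia and fibroblasts alike.

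Of the genes around the members, 38 genes of the upstream pathway (calcium channels, NMDA receptors, calmodulin and its kinases, MAPK, CREB and SRF) were followed in the same fits. Between DIV7 and DIV3 in glutamatergic neuron-like cells 8 of 38 rose and none fell, beside 4.83% higher and 2.42% lower among all genes, with a median log2 change of 0.70 beside -0.04 for all genes, led by Camk2a (3.00 ± 0.33, adjusted p = 0.00148) and Camk2b (0.91 ± 0.19), the subunits of the calmodulin kinase of synapses, and Ppp3ca (1.45 ± 0.20), the catalytic subunit of calcineurin. Of 22 other activity-regulated genes 3 rose: Ptgs2, which makes prostaglandins (4.81 ± 0.71), Synpo, a spine actin protein (2.14 ± 0.44), and Ppp1r15a, a stress-induced phosphatase subunit (1.36 ± 0.26). Of 24 dissociation and heat shock genes outside the members none was called in neurons by edgeR, 8 had an unadjusted p under 0.05, and the median was 0.25. In radial glia or astrocyte-like cells 6 of these 24 rose and 5 fell, beside 7.17% and 8.42% of all genes, with falls of the mitochondrial chaperones Hspe1 (-1.499 ± 0.23) and Hspd1 (-1.48 ± 0.24) and a rise of Cebpb, an inflammatory factor (2.51 ± 0.41). Between the classes, 23 of 38 upstream genes were higher and 6 lower in glutamatergic neuron-like than in radial glia or astrocyte-like cells, while of the 24 dissociation and heat shock genes 6 were higher and 12 lower, beside 33.9% higher and 37.0% lower among all genes. Lower dissociation genes included Cebpd (-4.16 ± 0.14), Nfkbiz (-3.77 ± 0.14) and Hspb1 (-4.80 ± 0.26). Unlike the members, the upstream genes could enter the clustering, and Grin2b is also a marker that named the glutamatergic class. Their difference between the classes could thus be built in, in part. Srf is in the upstream and in the other activity list.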

How the data were processed

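The deposited matrices hold raw UMI counts for each gene and barcode, which the authors left unnormalized. Software version 3.0.2 wrote them, per the file headers, while Cell Ranger 4.0.0 and mm9 are named, per the submitters' processing notes. The design text says that single cells were sorted. A barcode was kept as a cell with 500 or more detected genes and no more than 10% of UMIs from mitochondrial genes, and 178 of 28050 barcodes (0.635%) that Scrublet (scanpy 1.11.5, expected rate 0.8% per 1000 barcodes) called doublets were removed. Clustering used 2000 variable genes without the members and without the dissociation, heat shock and other activity lists (30 principal components, 15 neighbours, leidenalg 0.10.2, resolution 1) and gave 35 clusters. A cluster took a class name when its marker score reached 0.15 and 1.5 times that of the runner-up, with 3 markers detected, thresholds set after viewing the clusters. Cycling cells (3239) and unnamed clusters (1578 cells) were left out, except in the counts of classes between paired libraries.

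For each library the counts of a class with 20 or more cells were added up and tested with edgeR 4.0.16 (R 4.3.3, limma 3.58.1): TMM scaling, filterByExpr, robust quasi-likelihood F tests across all genes, two-sided, with adjusted p under 0.05 as the threshold. Day fits used a mean per day over all libraries (3 residual degrees of freedom), class comparisons the library as a block. Printed CPM are relative to total counts, log2 changes to TMM-scaled counts. Samples were grouped by the labels' day. Same-numbered libraries deviated together (r = 0.346 for DIV3 and DIV5, 0.151 for DIV3 and DIV7 and 0.253 for DIV5 and DIV7, over 13291 genes), so the replicate number was also used as a block. DESeq2 1.42.0, other filters, scalings, clusterings and left-out libraries were tried as alternatives. Shares of cells have exact Clopper-Pearson 95% intervals. The steps were tested on simulated data with the same set spread for every gene. A log2 change of 1 was recovered for 33.3% of genes for DIV7 against DIV3 in neurons and 45.7% in radial glia. It was recovered for 94.0% for neurons against radial glia and 7.9% for the difference between classes. At a log2 change of 2 the shares were 88.4%, 95.6%, 100% and 63.6%, in that order. These shares hold for the set spread and do not carry over to members whose libraries of a day lay far apart, such as Npas4, Fos and Arc. A member that did not pass is thus not shown to be unchanged. The members, the gene lists and the rule on which genes to name were chosen with earlier results of these data known. That rule gives values per library for Npas4, Arc, Bdnf, Fos, Egr1, Junb and Nr4a1, the members past the threshold in each comparison (the 10 with the smallest p where there were more), and, for lists of other genes, up to 3 past the threshold with the smallest p. Genes with few UMIs are limited by counting error: an absent gene could still hold up to 3 counts.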

Additional observations from a re-analysis of the deposited data

Results flagged for a closer look

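Ier5 was 1 of 2 members whose change with day differed between neurons and glia. Its change at DIV7 over DIV3 in glutamatergic neuron-like cells minus that in radial glia or astrocyte-like cells was -0.90 on the log2 scale (edgeR, adjusted p = 0.0369). In microglia or macrophage-like cells both DIV7 libraries (102 and 100.2 CPM) lay above both DIV3 libraries (74.4 and 49.8 CPM), a ratio of mean levels of 1.63, while in glutamatergic neuron-like cells both DIV7 libraries (113 and 90.8 CPM) lay below both DIV3 libraries (179 and 146 CPM). The difference between neurons and microglia was not tested.

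Rasgrp1 had a larger change in glutamatergic neuron-like cells than in radial glia or astrocyte-like cells, by 3.87 (adjusted p = 0.0182), a fitted value that depends on the prior count, since neurons held 3 UMIs at DIV3. In radial glia or astrocyte-like cells Rasgrp1 had 1.47 CPM (DIV1), 1.01 and 1.64 (DIV3), 4.55 and 11.02 (DIV5) and 4.31 and 10.5 (DIV7).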

How the results depend on the processing

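Counts of members called were within 1.5 times the count reported under every alternative for neurons against glia, microglia and fibroblasts and for dentate-like cells, and among 440 gene results none changed sign where it was called. The counts below are those that moved further, by comparison, and the causes were not tested beyond the construction of each alternative. They stand without the share of all genes called under the same alternative, which moved as well and is given for some alternatives with the comparisons above. The counts thus show how far the result moved, and a larger count does not set the members apart from other genes. For DIV7 against DIV3 in glutamatergic neuron-like cells (4 called) the count was 8 without the low-count filter, 0 with at least 1000 genes and at most 5% mitochondrial UMIs per cell, 11 with the replicate block, 9 in dentate-like cells alone and 1 to 21 with a library left out. For DIV5 against DIV3 (1 called) it was 2 with DESeq2, 4 without the filter, 0 with the stricter cells, 0 with thinned cells, 6 with the replicate block, 0 with the libraries of both days only, 2 in dentate-like cells and 0 to 18 with a library left out. For DIV3 against DIV1 (0 called) it was 2 with DESeq2, 4 without the filter, 1 with doublets kept, 2 with thinned cells, 1 without cluster 28, 2 in dentate-like and 1 in other glutamatergic cells, and 0 to 5 with a library left out. In radial glia (10 called) it was 4 with stricter cluster naming, 18 with the block and 0 to 11 with a library left out. In microglia (0 called) it was 1 with DESeq2 and 12 without the filter, and in fibroblasts (12 called) 21 without the filter, 1 with stricter naming, 20 with the block and 0 to 14 with a library left out. For GABAergic against glutamatergic cells (17 called) it was 6 with the stricter cells, 10 when the members entered the clustering and 10 to 16 with a library left out. For the difference between classes (2 called) it was 15 without the filter, 0 with the stricter cells, 1 with members in the clustering and 0 to 10 with a library left out. The share of DIV3 replicate 2 glutamatergic cells with Npas4 was 71.6% and, thinned, 52.2%. Stricter naming, cluster 28 and the split of the glutamatergic cells were chosen after seeing the data. The replicate block changed the counts given above and was not used in class comparisons, which had the library as a block. Depth limits the value of Rasgrp1, with 3 counts at DIV3 in glutamatergic neuron-like cells.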

Other observations

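Within libraries, the members could be followed in the same cell. Glutamatergic neuron-like cells were thinned to 3000 UMIs each, and cells with a UMI of Npas4 were set beside cells without one. Fos was found in 78.5% of the 149 cells with Npas4 and 30.7% of the 1108 without it at DIV1, in 55.8% of the 104 cells with Npas4 and 27.4% of the 911 without it in DIV3 replicate 1, and in 95.4% of the 65 cells with Npas4 and 82.6% of the 23 without it in DIV7 replicate 2. Fos was the more frequent in cells with Npas4 in all 7 libraries. Bdnf was found in 68.5% of the 149 cells with Npas4 and 27.8% of the 1108 without it at DIV1, where the shares were far apart, and in 78.5% of the 228 cells with Npas4 and 78.2% of the 78 without it in DIV7 replicate 1, where they were nearly equal. Arc, too, was the more frequent in cells with Npas4 in all 7 libraries, in 14.5% of the 228 cells with Npas4 and 2.56% of the 78 without it in DIV7 replicate 1. In DIV3 replicate 1 this rested on very few cells with Arc (0.962% of 104 and 0.11% of 911). Bdnf in DIV5 replicate 1 (76.8% with Npas4, 77.2% without) and Egr1 in DIV3 replicate 1 (1.92% and 2.20%) went the other way. Both were the more frequent with Npas4 in every other library. These shares describe cells of the same library and have no test, since cells are not replicates.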
